A study of Saccharomyces cerevisiae with 12 samples.

Results

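The comparison of the ecm32Δ deletion strain with its WT parent took in 4 libraries of 12 in the series, 2 per strain, and 10799 endogenous features of the 10891 rows of the table, the rest being ERCC spike-ins. Both strains are Saccharomyces cerevisiae BY4741, haploid MATa cells carrying his3Δ1, leu2Δ0, met15Δ0 and a ura3 deletion. The mutant also carries ecm32Δ::kanMX4, in which a drug resistance cassette stands in place of the gene. The remaining libraries come from slh1Δ, ski2Δ, dbp1Δ and dhh1Δ strains of the same background, each deleted with kanMX4, which the label of WT does not list. All cells grew in YPD, a glucose-rich medium, at 30°C to an OD600 of 0.5. Total RNA freed of ribosomal RNA was sequenced by a stranded kit, and the series counts the 2 libraries of a strain as biological replicates.

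ECM32 encodes an RNA and DNA helicase of the Upf1-like superfamily, also named Mtt1, that binds the translation termination factors eRF1 and eRF3. The series asks whether such cytoplasmic helicases affect XUTs, long noncoding RNAs that the exonuclease Xrn1 degrades in the cytoplasm. CUTs, degraded mainly by the nuclear exosome, and NUTs, which accumulate when Nrd1-dependent termination fails, are further noncoding classes in the table. Nothing in the labels says that more than 1 deletion clone was used, so clone and deletion cannot be told apart. A bulk library gives the average over the culture, and fewer cells with a transcript cannot be told apart from less of it per cell.

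Levels below are rescaled densities, that is reads per nucleotide on a scale common to all libraries. Depth was 9036181 and 14808157 reads in the WT libraries and 14158543 and 16036767 in ecm32Δ. Spike-ins took 1.22% of reads in WT replicate 1 and 1.72 to 2.69% in the other 11 libraries. Scaling factors from spike-ins were 0.506 and 1.21 in the WT libraries, where those of the rescaling used here were 0.868 and 0.972. Values against WT with spike-in scaling below rest on these 2 unlike factors. LEU2 had 0 and 0 reads in WT and 1 and 0 in ecm32Δ, URA3 had 0 and 1 against 0 and 0, and MET17, the current name of MET15, had 0 in every library. HIS3, of which his3Δ1 removes a part, was read 267 and 492 times in WT. The MATa markers STE2, BAR1, MFA1, MFA2, STE6 and AGA2 were all present, with densities of 0.824 (AGA2) or more in all 4 libraries. Among the MATalpha markers, MF(ALPHA)1 stayed at 0.00751 or less and STE3 at 0.0141 or less, and SAG1 stood at 0.0792 to 0.102. SKI2 was nearly absent from the libraries labelled dbp1Δ and DBP1 from those labelled ski2Δ, so these 2 strains are called by their labels only.

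ECM32 itself was removed. Its density was 0.239 and 0.183 in WT and 0.000771 and 0.000462 in ecm32Δ, from 612 and 724 reads against 3 and 2. The gene (YER176W) lies on chromosome V, 541690 to 545055 in build R64. The ratio of WT to ecm32Δ was 337, with a 95% counting interval of 144 to 1040, and the log2 fold change was -5.21 (standard error 0.13, limma-trend adjusted p = 3.3e-08). The libraries of the other deletions held ECM32 at 0.131 to 0.222, the lowest being those of dhh1Δ. The neighbouring genes on both sides were not called. TMT1 changed by -0.18 on the log2 scale, BMH1, which encodes a 14-3-3 protein, by 0.06, and PDA1, a pyruvate dehydrogenase subunit, by -0.08. YER175W-A, with 4 to 8 reads per library, changed by 0.11 with a standard error of 0.49.

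The other helicase genes of the series were present in ecm32Δ. SLH1 changed by 0.06 on the log2 scale against WT, SKI2 by 0.16, DHH1 by -0.07 and DBP1 by -0.31, none of them past an adjusted p of 0.05 (limma-trend).

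Few features besides ECM32 were called. Of 9433 features tested, 5 were called higher in ecm32Δ, 0.053% of them, and 11 were called lower, 0.117%, ECM32 among them. At an unadjusted p under 0.05 there were 1121, or 11.9%. The 2 strains did not overlap at any of the 16 called features. Separation alone is common: 18.6% of all features tested had both ecm32Δ libraries above both WT libraries and 24.6% had both below. The calls are 9 protein-coding genes, 3 XUTs, 2 CUTs, 1 NUT and 1 snoRNA. ECM32 was called with any single library of the comparison left out. TPO2 and XUT0921 were called again without WT replicate 1, and the other 13 features were called in none of these fits. These fits made 4 calls without WT replicate 1, 1 without WT replicate 2, 2 without ecm32Δ replicate 1 and 1 without ecm32Δ replicate 2.

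**Figure D1:**
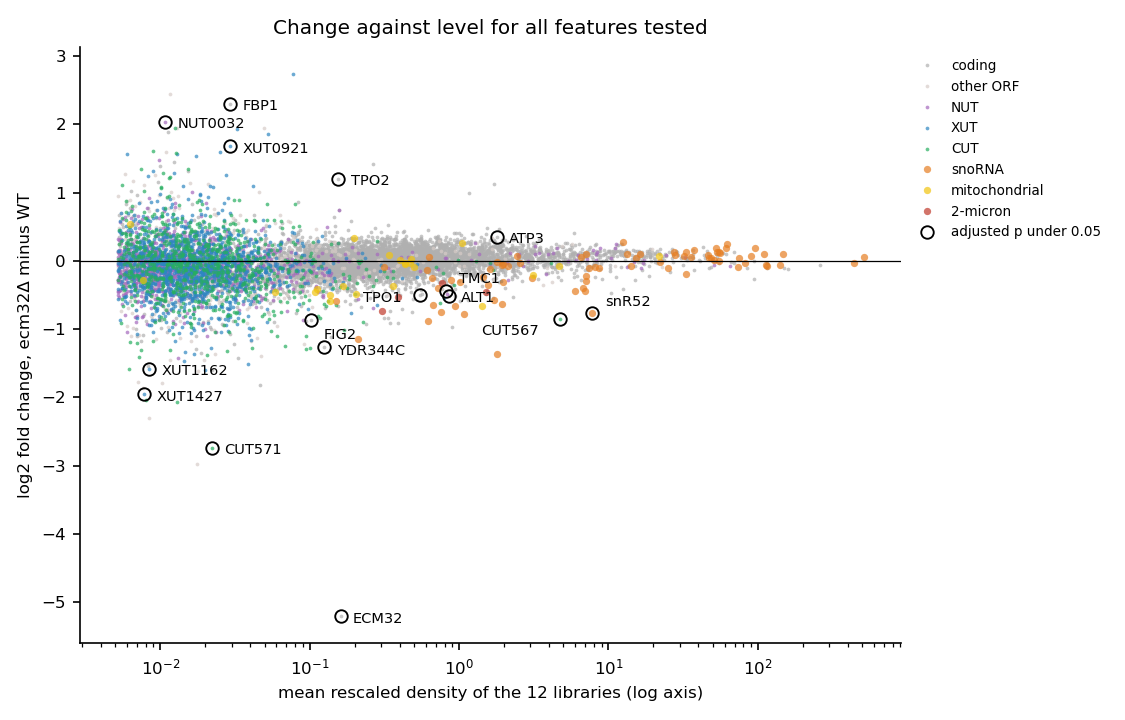
Log2 fold change of ecm32Δ against WT (vertical axis) for each of the 9433 features tested, plotted at its mean rescaled density over the 12 libraries (log axis) and coloured by class. Open circles mark the 16 called features. ECM32 stands alone at -5.21, and most other points lie near 0.

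The protein-coding gene with the largest called rise was FBP1, whose product, fructose bisphosphatase, works in gluconeogenesis and whose transcription glucose represses. It is YLR377C on chromosome XII, 873746 to 874792. FBP1 had 6 and 12 reads in WT and 83 and 79 in ecm32Δ, densities of 0.00727 and 0.00942 against 0.0662 and 0.0567. The fitted log2 fold change was 2.30 (standard error 0.28, adjusted p = 0.0177, limma-trend), and the ratio of reads was 7.14 with a 95% counting interval of 4.38 to 12.4. The WT libraries were low and ecm32Δ was high, but WT was not alone at the bottom. FBP1 stood at 0.0386 and 0.0378 in slh1Δ, at 0.0308 and 0.0608 in the libraries labelled ski2Δ, at 0.0138 and 0.0139 in those labelled dbp1Δ and at 0.0114 and 0.00639 in dhh1Δ. Against the mean of slh1Δ and the ski2Δ- and dbp1Δ-labelled strains, FBP1 was 0.96 higher on the log2 scale, with an adjusted p of 0.058.

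Other genes of the same list were not called. SFC1, the mitochondrial succinate-fumarate carrier, with 2 and 2 reads in WT and 12 and 10 in ecm32Δ, differed by 0.83 (standard error 0.25), MLS1, malate synthase of the glyoxylate cycle, by 0.59, and MDH2, the cytosolic malate dehydrogenase, by 0.25. Of 19 genes tested for gluconeogenesis, the glyoxylate cycle and fatty acid oxidation, 8 had both ecm32Δ libraries above both WT libraries. Another 2 had both below, against 18.6 and 24.6% of all features, and the median was 0.11. VID24, the subunit of the GID ubiquitin ligase that recognises fructose bisphosphatase for degradation, had densities of 0.494 and 0.662 in WT and 0.351 and 0.325 in ecm32Δ. Its log2 difference of -0.75 (standard error 0.14) did not pass, at an adjusted p of 0.0702.

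The plasma membrane polyamine exporters TPO1 and TPO2 went opposite ways. TPO2 (YGR138C, chromosome VII, 763762 to 765606) stood at 0.0573 and 0.0393 in WT and 0.123 and 0.109 in ecm32Δ, a log2 fold change of 1.2 (standard error 0.16, adjusted p = 0.0358). TPO3 is its close paralog, so counting could split reads of the pair, and TPO3 differed by -0.08. TPO1 (YLL028W, chromosome XII, 84804 to 86564) stood at 0.644 and 0.638 in WT and 0.436 and 0.465 in ecm32Δ, a log2 fold change of -0.51 (standard error 0.07, adjusted p = 0.0405). Against other mutants the pair looked different. TPO2 lay at 0.103 to 0.136 in the 6 libraries of slh1Δ and the ski2Δ- and dbp1Δ-labelled strains, around the ecm32Δ values, and its difference from their mean was -0.03. TPO1 in those 6 libraries lay at 0.533 to 0.606, between WT and ecm32Δ, with a log2 difference of -0.31 (adjusted p = 0.0316).

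ATP3 (YBR039W, chromosome II, 315575 to 316510), the gamma subunit of the mitochondrial F1 ATP synthase, showed the smallest called rise. Its densities were 1.38 and 1.38 in WT and 1.77 and 1.75 in ecm32Δ, a log2 fold change of 0.35 (standard error 0.05, adjusted p = 0.0406). All 10 libraries of the deletion strains stood above both WT libraries. The difference from the mean of slh1Δ and the ski2Δ- and dbp1Δ-labelled strains was 0.12, with an adjusted p of 0.175.

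Among the genes that fell, FIG2 (YCR089W, chromosome III, 267434 to 272263) encodes a cell wall adhesin used in mating. It had densities of 0.0952 and 0.0905 in WT and 0.0459 and 0.0509 in ecm32Δ, a log2 fold change of -0.87 (standard error 0.13, adjusted p = 0.0406). The 2 ecm32Δ libraries were the lowest of all 12, the nearest being slh1Δ at 0.0647 and 0.0712. FIG2 was also called lower against the mean of slh1Δ and the ski2Δ- and dbp1Δ-labelled strains, at -0.81 (adjusted p = 0.00754).

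TMC1 (YOR052C, chromosome XV, 426772 to 427224), an AN1-type zinc finger protein, was lower in ecm32Δ, with a log2 fold change of -0.44 (standard error 0.07, adjusted p = 0.0406). Its densities were 0.814 and 0.862 in WT and 0.645 and 0.59 in ecm32Δ, and again the 2 ecm32Δ libraries were the lowest of the 12. The difference from the mean of slh1Δ and the ski2Δ- and dbp1Δ-labelled strains was -0.38 (adjusted p = 0.0111). RPN4, the transcription factor that drives proteasome genes, was at 0.51 and 0.535 in WT and 0.388 and 0.411 in ecm32Δ. Its log2 difference of -0.38 (standard error 0.07) had an adjusted p of 0.0769 and was not called.

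ALT1 (YLR089C, chromosome XII, 318237 to 320015), the mitochondrial alanine transaminase, fell by 0.51 in log2 terms (standard error 0.08, adjusted p = 0.0406), from 0.951 and 1 in WT to 0.67 and 0.7. YDR344C (chromosome IV, 1162006 to 1162449), an open reading frame of unknown function, fell by 1.25 in log2 terms (standard error 0.18, adjusted p = 0.0405), from 55 and 102 reads to 41 and 37. Both genes were below WT in all 6 libraries of slh1Δ and the ski2Δ- and dbp1Δ-labelled strains as well. Their differences from the mean of those strains, -0.23 for ALT1 and -0.61 for YDR344C, did not pass (adjusted p 0.0792 and 0.059).

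**Figure D2:**
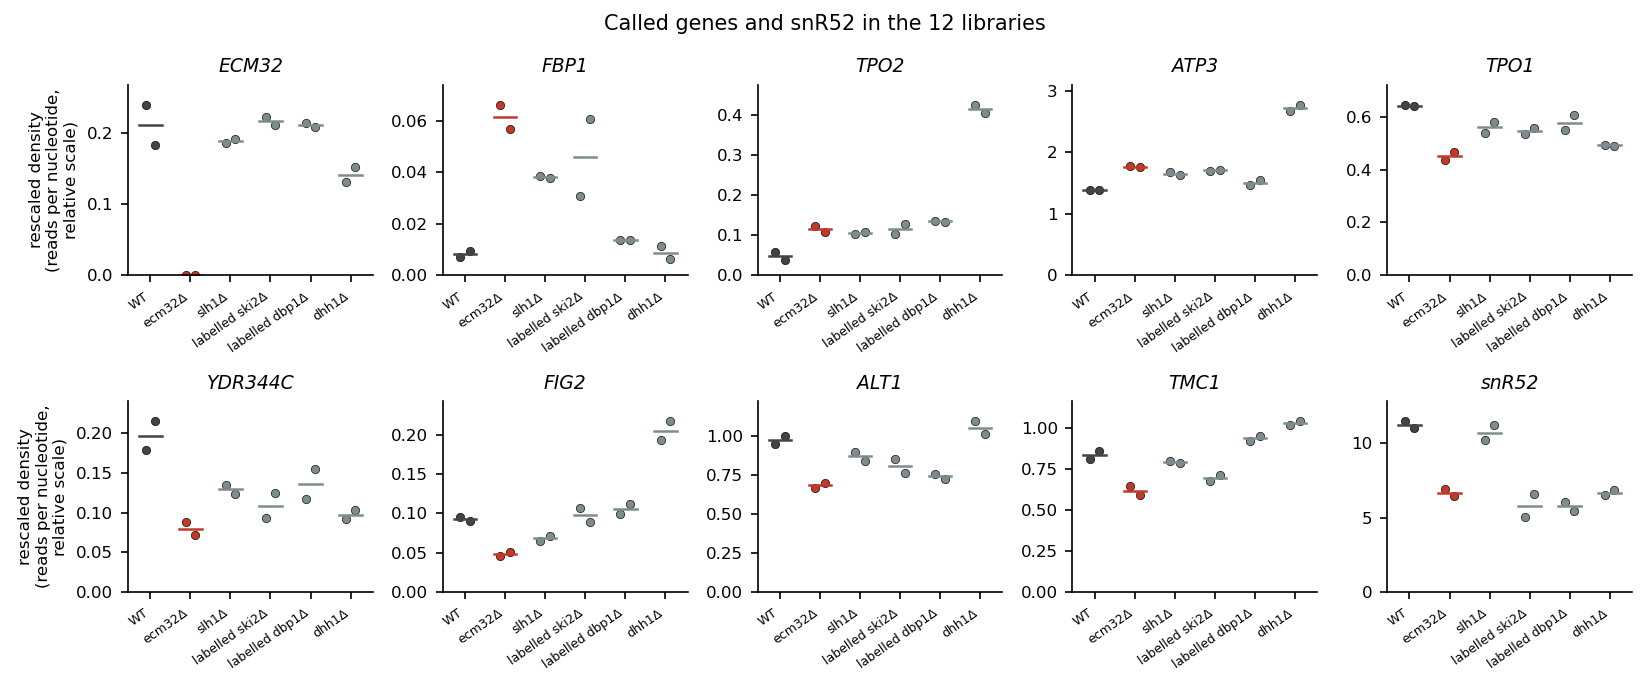
Rescaled density (vertical axes, from 0) of the 9 called protein-coding genes and of snR52 in each of the 12 libraries. Points are libraries, bars the mean of the 2 libraries of a strain, with WT in black and ecm32Δ in red. For FIG2 and TMC1 the 2 ecm32Δ points lie below all others, while TPO2 and snR52 in ecm32Δ lie among the other deletion strains.

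The only snoRNA called was snR52, a box C/D RNA that guides methylation of ribosomal RNA. It lies on chromosome V, at 431129 to 431220 on the minus strand of R64. Its sequence, from the RefSeq genome with the box C and box D motifs in capitals, shows the feature the call rests on.
snR52: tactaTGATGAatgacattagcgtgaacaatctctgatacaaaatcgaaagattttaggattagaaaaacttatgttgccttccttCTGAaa
The density of snR52 was 11.5 and 11 in WT and 6.89 and 6.42 in ecm32Δ, a log2 fold change of -0.76 (standard error 0.12, adjusted p = 0.0406). The slh1Δ libraries stood near WT at 10.2 and 11.2, and the other 6 libraries stood between 5.01 and 6.87, close to or below ecm32Δ. The difference from the mean of slh1Δ and the ski2Δ- and dbp1Δ-labelled strains was -0.09. CUT567, called lower at -0.84, had nearly the reads of snR52 in every library, with a ratio of snR52 to CUT567 of 0.976 to 1.16, so the 2 calls are not independent.

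Across all 76 snoRNAs, 24 had both ecm32Δ libraries below both WT libraries and 3 had both above, against 24.6 and 18.6% of all features. Their changes ran from -1.37 to 0.27 on the log2 scale, with a median of -0.06. In the deposited values the median ratio over snoRNAs was already 1.01 to 1.02 in every library. Rescaling on open reading frame rows moved libraries apart at snoRNAs.

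Most other called noncoding features rested on few reads. XUT1162 had 20 and 29 reads in WT and 0 and 0 in ecm32Δ, and 16 to 38 in each of the 8 libraries of the other deletions. WT was at least 20.6-fold higher, taking 3 reads over both ecm32Δ libraries as the limit that a count of 0 allows. CUT571 had 10 and 13 reads against 0 and 0, with 7 to 26 in each of the other 8 libraries, and was at least 9.66-fold lower in ecm32Δ. XUT1427 had 3 and 4 reads against 0 and 0, at least 2.94-fold lower. Fitted adjusted p-values were 0.0177 for XUT1162, 0.00955 for CUT571 and 0.0394 for XUT1427, and all 3 were also called lower against the mean of slh1Δ and the ski2Δ- and dbp1Δ-labelled strains.

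With YML009C-A, which had 2 and 7 reads in WT, these are the 4 features that were at 0 in both ecm32Δ libraries and read at least once in each of the other 10. The same count, taken for each strain in turn, was 4 for WT, 1 for slh1Δ, 6 for the strain labelled ski2Δ, 0 for the strain labelled dbp1Δ and 15 for dhh1Δ. In the other direction, XUT0921 had 2 and 2 reads in WT and 12 and 11 in ecm32Δ, a ratio of 4.56 with a counting interval of 1.56 to 18.1. NUT0032 had 0 and 0 reads in WT and 3 and 2 in ecm32Δ, at least 1.32-fold higher. XUT0921 in the other deletion strains lay at 0.0216 to 0.044, against 0.00743 and 0.0115 in WT and 0.0374 and 0.0453 in ecm32Δ. Positions of XUTs, CUTs and NUTs were not used here, so whether XUT1162, CUT571 or XUT1427 overlaps the deleted ECM32 stretch was not tested.

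By class, XUTs held 0.299 and 0.281% of endogenous reads in WT and 0.254 and 0.256% in ecm32Δ. CUTs held 0.114 and 0.115% against 0.0994 and 0.101%. NUTs held 5.07 and 4.96% against 4.92 and 5.09%, so these groups overlapped. Some NUT rows nearly repeat a protein-coding gene. NUT0103 had a mean density of 8.29 over all libraries and RPL31A 8.40, and both changed by 0.096 on the log2 scale. How much of the NUT share comes from reads of such genes was not tested. XUTs and CUTs were lower in both ecm32Δ libraries, but 2 libraries against 2 cannot give an exact permutation p below 0.333. The libraries of the other deletions spanned 0.18 to 0.33% for XUTs and 0.0729 to 0.121% for CUTs, and the ecm32Δ values lay within both ranges. For XUTs only dhh1Δ, at 0.18 and 0.183%, lay below ecm32Δ. In slh1Δ and the ski2Δ- and dbp1Δ-labelled strains XUTs held 0.271 to 0.33%, above both ecm32Δ libraries. CUTs in those strains held 0.0874 to 0.121%, a range that still took in the ecm32Δ values.

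Feature by feature, the 1401 XUTs tested had a median log2 fold change of -0.08, and 61.0% of them were below 0. Of these XUTs, 1 was called higher and 2 lower. Both ecm32Δ libraries lay above both WT libraries for 166 (11.8%) and below for 389 (27.8%), against 18.6 and 24.6% of all features. The 1081 NUTs had a median of -0.09 with 1 called higher, and the 823 CUTs a median of -0.07 with 2 called lower. With a mean density above 0.0519, medians were -0.10 for 93 XUTs, -0.04 for 142 NUTs, -0.19 for 113 CUTs and 0.004 for all features. Of those CUTs, 54 lay below both WT libraries in both ecm32Δ libraries and 10 above, against 22.8% each way for all features at that level. Their median against slh1Δ and the ski2Δ- and dbp1Δ-labelled strains was 0.07. Without that limit on density, the median over all features was -0.02, and over the 5622 protein-coding genes it was 0.01. Scaling moves these medians: with the densities as deposited the XUT median was -0.003 and that of all features 0.08, and with spike-in scaling they were -0.22 and -0.17. With quantile normalization the XUT median was 0.007 and that of all features 0.009. The sign of the XUT median thus depended on the scaling, while it lay below the median of all features under each.

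**Figure D3:**
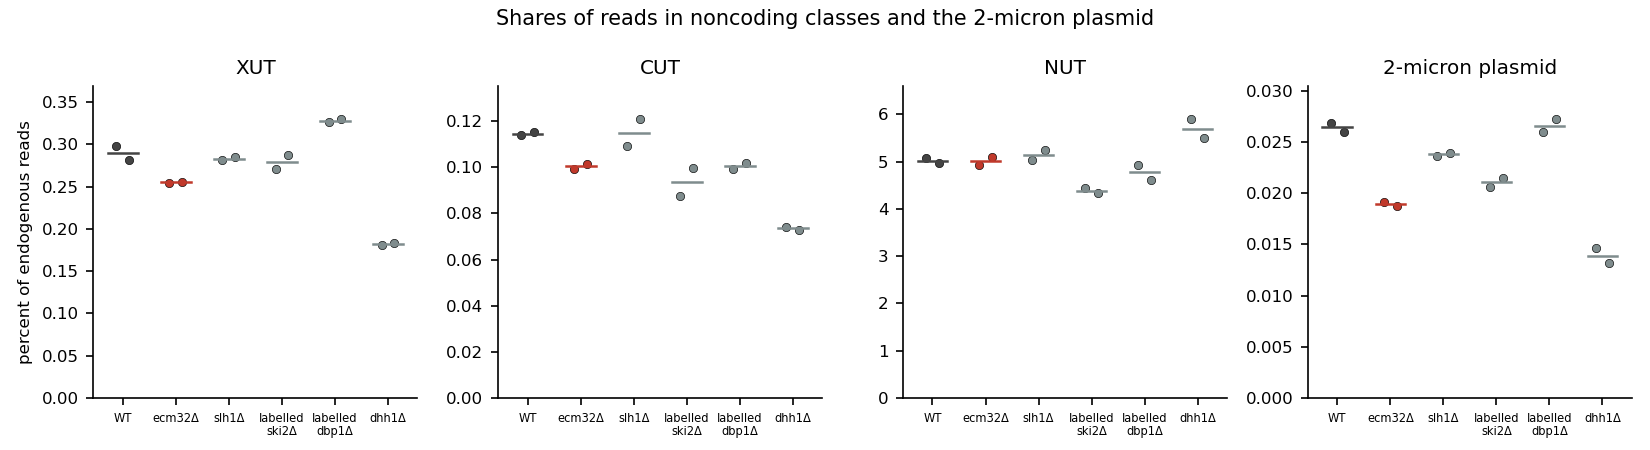
Percent of endogenous reads (vertical axes, from 0) assigned to XUTs, CUTs, NUTs and the 2-micron plasmid in each of the 12 libraries. Points are libraries and bars strain means. XUTs in ecm32Δ lie at 0.254 and 0.256% and in WT at 0.281 and 0.299%, while NUTs overlap.

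Among the better-read noncoding features, a few differed without passing. XUT0109 had densities of 1.14 and 1.09 in WT and 0.757 and 0.768 in ecm32Δ (log2 difference -0.55, adjusted p = 0.0962, limma-trend). NUT0349 had 0.095 and 0.094 against 0.0576 and 0.0518 (-0.74, adjusted p = 0.0582). In the other direction, NUT0318 had 0.126 and 0.141 against 0.178 and 0.202 (0.49, adjusted p = 0.134). The 2 ecm32Δ libraries held the highest NUT0318 values of the 12, and its difference from the mean of slh1Δ and the ski2Δ- and dbp1Δ-labelled strains was 0.66 (adjusted p = 0.00916).

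The 2-micron circle, a plasmid that yeast carries in many copies, was lower in ecm32Δ. Its 4 features held 0.0268 and 0.026% of endogenous reads in WT and 0.0192 and 0.0187% in ecm32Δ. All 4 had both ecm32Δ libraries below both WT libraries, against 24.6% of all features, and none was called. The 4 sit on the same plasmid, so they are not independent. R0010W, the FLP1 recombinase, had the smallest adjusted p, 0.0632, with densities of 0.402 and 0.505 in WT against 0.275 and 0.263 (log2 difference -0.74, standard error 0.13). R0040C, which encodes a partitioning protein, had a difference of -0.45, R0030W of -0.52 and R0020C of -0.33. The deletion strains other than the one labelled dbp1Δ also had lower plasmid shares than WT, from 0.0132 to 0.024%. Plasmid copy number was not measured.

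Gene groups were then read as wholes, by counts and medians. Counts of genes with both ecm32Δ libraries above or below both WT libraries compare with 18.6 and 24.6% of all features. Among the 5622 protein-coding genes tested, these shares were 22.8 and 22.4%. The list with the highest median was ribosome biogenesis, the nucleolar processing and assembly of ribosomal subunits. In this group, 57 of 78 genes had both ecm32Δ libraries above both WT libraries and 0 had both below, against 18.6 and 24.6% of all features. None was called at an adjusted p of 0.05 (limma-trend), and at an unadjusted p under 0.05 there were 41 higher and 0 lower. The median log2 fold change was 0.23, with members between -0.06 (UTP20) and 0.43 (ROK1). The median stayed positive under every scaling, at 0.33 as deposited, 0.07 with spike-ins and 0.21 with quantile normalization.

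ROK1, a DEAD-box helicase of small subunit assembly, was at 0.351 and 0.372 in WT and 0.508 and 0.471 in ecm32Δ (0.43, standard error 0.08, adjusted p = 0.0702). DBP3, a DEAD-box helicase of large subunit processing, was at 1.04 and 0.999 against 1.39 and 1.26 (0.38, adjusted p = 0.0962). NOP2, a ribosomal RNA methyltransferase, was at 1.04 and 1.1 against 1.44 and 1.3 (0.34, adjusted p = 0.0941). For these 3 genes the 2 ecm32Δ libraries were the highest of the 12, and the dhh1Δ libraries the lowest. Replicate 1 of ecm32Δ carried the larger part: the median member of the group stood 0.33 above the median library on the log2 scale in replicate 1 and 0.18 in replicate 2. WT stood at 0.04 and 0.01 on the same measure.

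Genes of ribosome biogenesis are known for a pair of upstream motifs, PAC and RRPE. The PAC core GATGAG, searched on both strands in the 250 bases before the start codon, was found for 73 of 78 genes of the group and for 16.5% of 5896 protein-coding genes. The RRPE core AAAATTTT was found for 63 of 78 and for 8.79%, and both together for 59 of 78 and for 4.16%. A match is a description of the letters only. Upstream sequence of ROK1, DBP3 and NOP2, the 3 members with the smallest p, is shown from 250 to 91 bases before the start codon, in the direction of transcription (R64 genome of RefSeq), with PAC and RRPE cores on either strand in capitals. The windows are chromosome VII 182140 to 182299 on the plus strand for ROK1, chromosome VII 361950 to 362109 on the minus strand for DBP3, and chromosome XIV 510290 to 510449 on the plus strand for NOP2.
ROK1: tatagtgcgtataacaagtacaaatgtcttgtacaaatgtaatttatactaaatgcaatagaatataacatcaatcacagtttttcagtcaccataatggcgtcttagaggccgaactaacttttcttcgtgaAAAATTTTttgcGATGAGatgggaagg
DBP3: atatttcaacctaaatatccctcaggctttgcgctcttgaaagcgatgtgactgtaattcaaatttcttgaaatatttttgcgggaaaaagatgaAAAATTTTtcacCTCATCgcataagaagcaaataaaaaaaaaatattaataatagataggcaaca
NOP2: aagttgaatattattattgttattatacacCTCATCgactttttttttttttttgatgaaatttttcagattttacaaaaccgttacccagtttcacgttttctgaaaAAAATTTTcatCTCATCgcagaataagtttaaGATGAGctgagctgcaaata
In ROK1 and DBP3 a single PAC core follows a single RRPE core within a few bases, and NOP2 has 3 PAC cores and 1 RRPE core. The 6-letter and 8-letter cores do not overlap in these windows.

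Set against the mean of slh1Δ and the ski2Δ- and dbp1Δ-labelled strains, a contrast without WT chosen after earlier results were seen, ecm32Δ differed at more features. There 116 features were called higher, 1.23% of those tested, and 135 lower, 1.43%. This comparison uses the same ecm32Δ libraries as the one against WT. In ribosome biogenesis 21 of 78 genes were called higher and 0 lower, with a median of 0.27. With either ecm32Δ library left out, 0 of the 78 were called and the total fell to 7 without replicate 1 and 14 without replicate 2. In these 2 fits the remaining ecm32Δ library is assumed to vary like the other strains, and why the counts fell was not tested. With 1 library of the other strains left out, 2 to 11 of the 78 were called. Against the mean of all 4 other deletions, dhh1Δ included, 597 features (6.33%) were called higher and 705 (7.47%) lower.

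Genes named in the contrast with the 3 strains are the 10 protein-coding ones in each direction with the smallest p whose 2 ecm32Δ libraries lay beyond all 6 others, a rule set after the values were seen. Higher in ecm32Δ were URA1, dihydroorotate dehydrogenase of pyrimidine synthesis (0.36, adjusted p = 0.0057), and URA4, dihydroorotase of the same pathway (0.31, adjusted p = 0.0167). Also higher were AAH1, adenine deaminase (0.49), GDH1, the NADP-dependent glutamate dehydrogenase (0.45), and ERG6, a sterol methyltransferase (0.34). URA4 was at 1.57 and 1.66 in WT and 2.02 and 1.98 in ecm32Δ, and that difference of 0.31 had an adjusted p of 0.082. SQT1 and RIO2, both of ribosome assembly, were higher by 0.34 and 0.35, beside DBP3 and NOP2. The subtelomeric gene COS8 was higher by 0.67.

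The 10 lower genes of this contrast include YGP1, SED1, HSP42, TVS1, CCW14 and FIG2, whose values are given with their lists or beside the calls. DSE2, a secreted protein of daughter cells that acts in cell separation, had a log2 difference of -0.57 (adjusted p = 0.00125). It stood at 1.42 and 1.55 in ecm32Δ and at 2.05 to 2.39 in the 6 libraries, with WT between them at 1.78 and 1.66. WHI3, an RNA-binding protein that restrains cell cycle entry, differed by -0.67 (adjusted p = 0.0025), with 0.308 and 0.305 in ecm32Δ against 0.435 to 0.544. SVL3 differed by -0.46 (adjusted p = 0.0044) and SUN4, a cell wall protein of septation, by -0.34 (adjusted p = 0.00916). Against WT the adjusted p was 0.25 for DSE2, 0.0821 for WHI3, 0.0962 for SVL3 and 0.585 for SUN4, and none of these 4 was called.

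**Figure D4:**
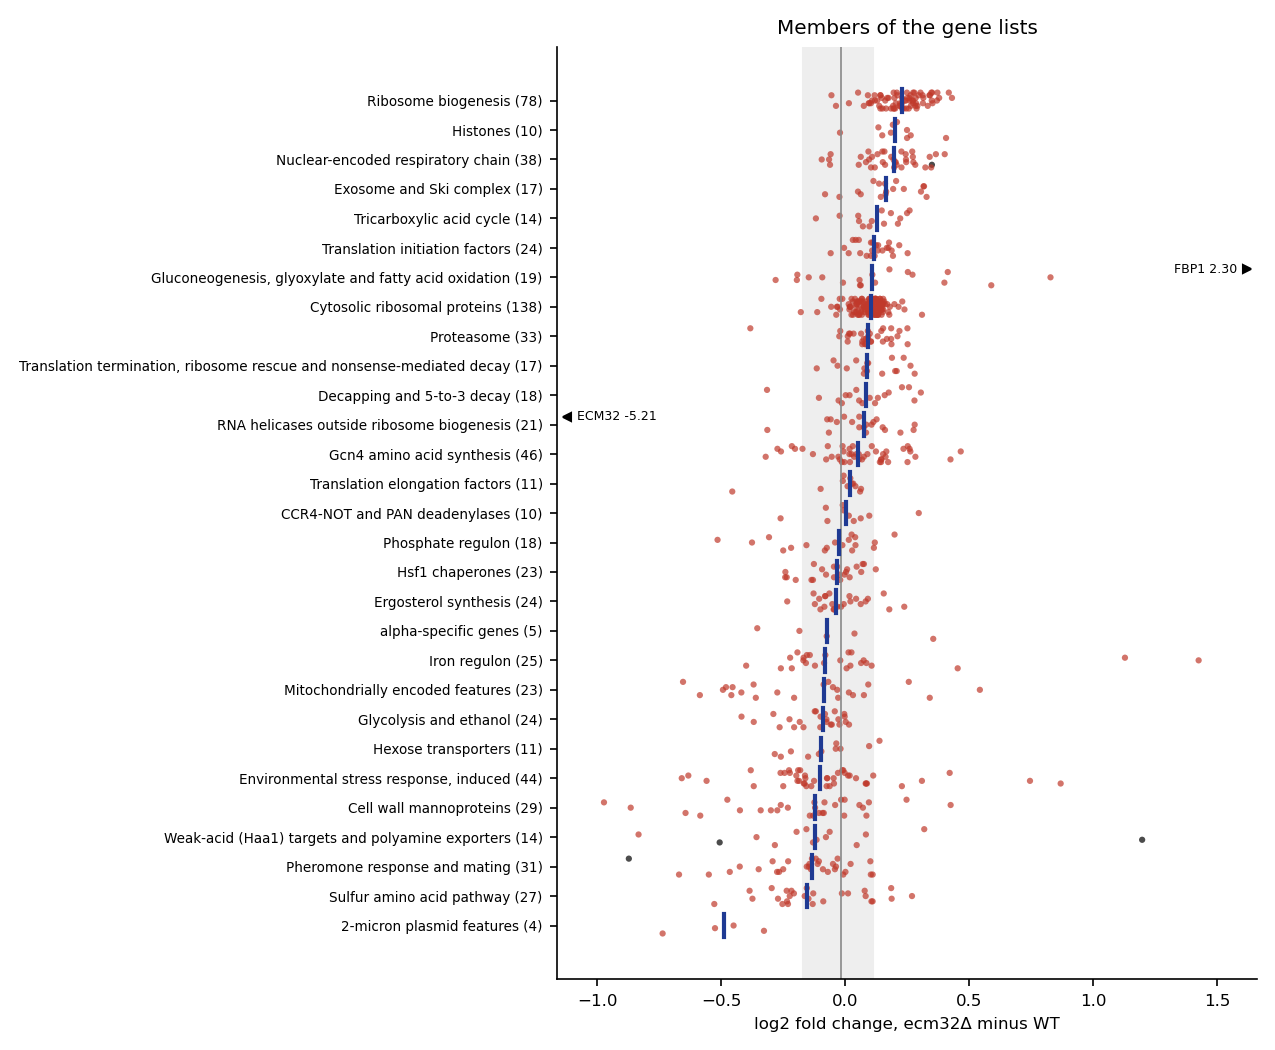
Log2 fold change of ecm32Δ against WT (horizontal axis) for the members of each gene list, with the number tested in brackets. Points are genes, black where called, blue bars are list medians, and the grey band and line are the middle 50% and the median of all 9433 features; ECM32 and FBP1 lie beyond the axis. Ribosome biogenesis sits right of the band at a median of 0.23, and the 2-micron features sit left of it at -0.49.

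Nuclear genes of the respiratory chain also leaned above WT. ATP3 was the only 1 called of 38, and the median was 0.20. Both ecm32Δ libraries lay above both WT libraries for 29 and below for 0, against 18.6 and 24.6% of all features. COR1 and QCR2, core subunits of the cytochrome bc1 complex, differed by 0.40 and 0.35, and NDE1, the external NADH dehydrogenase, by 0.34, with adjusted p of 0.0962 to 0.12. QCR2 was at 1.05 and 1.16 in WT and 1.43 and 1.37 in ecm32Δ, and NDE1 at 1.69 and 1.78 against 2.12 and 2.28. The 2 WT libraries were the lowest of the 12 for this group: the median member stood at -0.15 and -0.18 relative to the median library in WT and at -0.03 and 0.08 in ecm32Δ. Against slh1Δ and the ski2Δ- and dbp1Δ-labelled strains the group median was 0.03, with 0 called higher and 1 lower. Over all features 1.23% were called higher and 1.43% lower in that contrast. Mitochondrially encoded features had a median of -0.09 against WT, with 0 of 23 called.

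Further lists with positive medians had 0 calls, and their counts compare with 18.6% above and 24.6% below over all features. Histone genes had a median of 0.20, with 9 of 10 above both WT libraries, among them HTB1 with 3.66 and 4.77 in WT against 5.56 and 5.52. The exosome and Ski complex, the machinery of 3′ to 5′ RNA decay, had a median of 0.16, with 10 of 17 above and 1 below, and its catalytic nuclear subunit RRP6 differed by 0.32. The tricarboxylic acid cycle had 9 of 14 above and 0 below with a median of 0.13. Cytosolic ribosomal proteins had a median of 0.10, with 82 of 138 above and 3 below. The medians of the tricarboxylic acid cycle and of the ribosomal proteins turned negative with spike-in scaling, at -0.03 and -0.05, where the median of all features was -0.17.

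Translation termination, the process to which Ecm32 has been linked, was given its own list with ribosome rescue and nonsense-mediated decay. None of its 17 genes was called, and the median was 0.09. With spike-in scaling it turned to -0.07, where the median of all features was -0.17. Both ecm32Δ libraries lay above both WT libraries for 8 and below for 0, against 18.6 and 24.6% of all features. SUP45, which encodes eRF1, differed by 0.15 and SUP35, eRF3, by 0.19, with 1.97 and 1.8 in WT against 2.24 and 2.06 for SUP35. The largest differences were 0.28 for DBP5, a helicase of mRNA export and termination, and 0.26 for ETT1, with adjusted p of 0.221 and 0.13. The rescue factors DOM34 and HBS1 differed by 0.21 and 0.24. The nonsense-mediated decay genes NAM7, which encodes Upf1, NMD2 and UPF3 differed by 0.08, -0.11 and 0.01.

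Translation initiation factors had 13 of 24 genes above both WT libraries and 0 below, against 18.6 and 24.6% of all features, with 0 called. Their median of 0.11 was -0.04 with spike-in scaling, where that of all features was -0.17. Among the other RNA handling lists, decapping and 5′ to 3′ decay had a median of 0.08 with 3 of 18 above and 1 below, and deadenylases 0.004 with 2 of 10 above and 2 below. RNA helicases outside ribosome biogenesis, ECM32 included, had a median of 0.08 with ECM32 the only 1 called of 21. MTR4, the helicase of the nuclear exosome, differed by 0.28 with an adjusted p of 0.168. Elongation factors had a median of 0.02 with 0 of 11 above and 1 below.

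Mating genes leaned below WT. FIG2 was the only 1 called of 31, and the median was -0.13, negative under all scalings. Both ecm32Δ libraries lay below both WT libraries for 17 and above for 2, against 24.6 and 18.6% of all features. AGA1, the anchor subunit of a-agglutinin, was at 0.162 and 0.184 in WT and 0.114 and 0.0993 in ecm32Δ (-0.67, adjusted p = 0.264). FUS1, a membrane protein of cell fusion, was at 0.264 and 0.326 against 0.203 and 0.195 (-0.55, standard error 0.10, adjusted p = 0.0702). FUS2 and PRM1, of the same step, differed by -0.47 and -0.42. The receptor gene STE2 differed by -0.15 and the transcription factor gene STE12 by 0.00. Against slh1Δ and the ski2Δ- and dbp1Δ-labelled strains the group median was -0.01, with 0 called higher and 2 lower. Over all features 1.23% were called higher and 1.43% lower there.

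Ste12 binds the pheromone response element, whose core TGAAACA, searched on both strands, lies within 250 bases before the start codon for 14 of 31 genes of the list and for 5.89% of 5896 protein-coding genes. The FUS1 window (chromosome III, 71553 to 71712, plus strand, R64, 250 to 91 bases before the start codon) shows 2 such cores, in capitals.
FUS1: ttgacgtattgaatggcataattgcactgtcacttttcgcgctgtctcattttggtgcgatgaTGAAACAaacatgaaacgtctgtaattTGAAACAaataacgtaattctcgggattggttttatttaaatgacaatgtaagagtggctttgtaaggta

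Further groups had negative medians with few or no calls. Of 44 genes that yeast induces under many stresses, 0 were called and the median was -0.10. Both ecm32Δ libraries lay below both WT libraries for 18 and above for 4, against 24.6 and 18.6% of all features. Relative to the median library, the median member stood at -0.22 and -0.06 in WT and -0.28 and -0.21 in ecm32Δ, so the strains overlapped. HSP42, a small heat shock protein, was at 0.151 and 0.122 in WT and 0.0875 and 0.0841 in ecm32Δ (-0.63, adjusted p = 0.165). HSP12, whose reads equal those of NUT0227, stood at 0.0269 and 0.0296 in WT and 0.0425 and 0.0606 in ecm32Δ (0.74, adjusted p = 0.134). Against slh1Δ and the ski2Δ- and dbp1Δ-labelled strains 9 of the 44 were called lower and 0 higher. Over all features these shares were 1.43 and 1.23%. HSP42 was called at -1.23 (limma-trend adjusted p = 0.00167) and YGP1, a secreted glycoprotein, at -0.92 (adjusted p = 0.000216). Against WT the log2 difference of YGP1 was -0.06. With 1 library of this contrast left out, 1 to 10 of the 44 were called, 1 without ecm32Δ replicate 1 and 2 without ecm32Δ replicate 2.

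Cell wall mannoproteins had 12 of 29 below both WT libraries and 5 above, against 24.6 and 18.6% of all features. None was called, and the median was -0.12. SED1, an abundant wall protein, was at 5.53 and 5.22 in WT and 3.65 and 4.08 in ecm32Δ (-0.47, adjusted p = 0.13), and TIR4 at 0.0306 and 0.0345 against 0.0111 and 0.0175 (-0.97, adjusted p = 0.122). In the contrast with the 3 strains 7 of the 29 were called lower and 0 higher, against 1.43 and 1.23% of all features. Among the 7 were SED1 at -0.85 and CCW14 at -0.74. Without ecm32Δ replicate 1 there were 0 such calls and without replicate 2 there was 1. Genes of the sulfur amino acid pathway had 13 of 27 below and 1 above with a median of -0.15. Glycolysis with ethanol metabolism had 11 of 24 below and 0 above with a median of -0.09. Both ecm32Δ libraries lay below WT replicate 2 for all 24, but below WT replicate 1 for 11 and above it for 7. Relative to the median library, the median glycolysis gene stood at 0.02 and 0.19 in WT and -0.01 and 0.01 in ecm32Δ. The glycolysis median was 0.01 with densities as deposited, where that of all features was 0.08.

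The weak-acid response and polyamine export list held both TPO2, called higher, and TPO1, called lower, with a median of -0.12 over 14 genes. TPO4 was at 0.269 and 0.224 in WT and 0.107 and 0.171 in ecm32Δ (-0.83, standard error 0.25), and HAA1, the transcription factor gene of the response, differed by -0.13. The remaining lists had 0 calls and medians between -0.10 and 0.09. They were hexose transporters, Hsf1 chaperones, the phosphate and iron regulons, Gcn4-dependent amino acid synthesis, ergosterol synthesis, the proteasome and alpha-specific genes. The proteasome had 19 of 33 genes above both WT libraries and 1 below, against 18.6 and 24.6% of all features. FRE1 and FRE7, reductases of the iron and copper response, differed by 1.13 and 1.42 with standard errors of 0.52 and 0.67, and for FRE7 the 2 ecm32Δ libraries themselves stood at 0.21 and 0.0849.

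**Figure D5:**
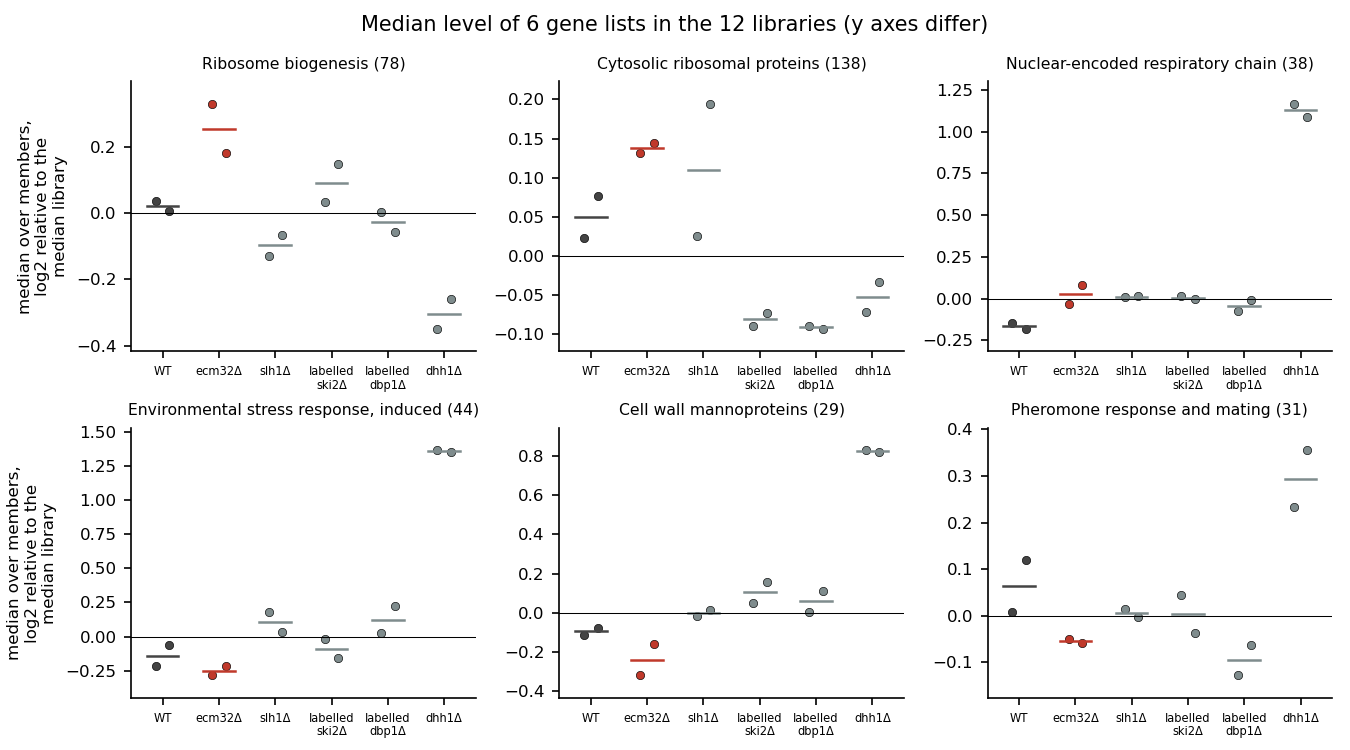
Median over the members of 6 gene lists in each of the 12 libraries (vertical axes in log2 units relative to the median library, scales differ). Points are libraries and bars strain means. Ribosome biogenesis is highest in ecm32Δ (0.33 and 0.18), the respiratory chain is lowest in WT, and cell wall genes are lowest in ecm32Δ (-0.32 and -0.16).

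Single genes near the threshold complete the comparison with WT. Higher in both ecm32Δ libraries without being called were UPS2, a mitochondrial phospholipid transfer protein (0.53, adjusted p = 0.0702), CHA1, the catabolic serine deaminase (0.37, adjusted p = 0.0702), and ADE1 of purine synthesis (0.31, adjusted p = 0.0769). Lower were DIP5, the dicarboxylic amino acid permease (-0.58), TVS1 (-0.52) and YJL213W (-0.76), each with an adjusted p of 0.0582. CHA1 stood at 2.41 and 2.47 in WT and 3.27 and 3.05 in ecm32Δ, and DIP5 at 1.32 and 1.17 against 0.758 and 0.912. TVS1 was lower in ecm32Δ, at 0.196 and 0.228, than in each of the other 10 libraries, which ranged from 0.293 to 0.422.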

How the data were processed

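The authors deposited a table of normalized densities, a signal in reads per nucleotide divided by a library factor, for 2 libraries of each of 6 strains. Per the submitters' processing notes, Trim Galore, HISAT2 2.2.0, featureCounts 2.0.0 and DESeq2 were used with build R64, with no order given. The authors' 6 mean columns were not used. All 124137 values above 0 were whole multiples of 1 read (tolerance 1e-05 reads) once a feature length up to 60000 bases was found, so reads were recovered, though they may be understated where counts share a factor. Depth was 8793755 to 17658723 reads. Of 7712 features with 120 or more summed reads, 68 have exactly the reads of another feature.

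Columns were rescaled by median ratios over the 5917 open reading frame rows (names starting with Y) above 0 in every library. These include some frames not annotated as protein-coding. Differences were tested with limma-trend (limma 3.58.1, R 4.3.3) on log2(density + 0.00519), the 10th percentile of values above 0, so fold changes of low features are understated. The 9433 features with a mean density above that pseudocount entered 1 model of all 12 libraries, and adjusted p-values are Benjamini-Hochberg over all of them, called under 0.05. Every adjusted p in the text is from limma. Tables and figures used Python 3.11.15, pandas 2.3.3, scipy 1.17.1 and matplotlib 3.10.9. Scripts were tested on simulated data. Intervals and floors (3 reads over a group) cover counting error only. Promoter and snoRNA sequences are from RefSeq R64, and 5996 features matched RefSeq names.

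Named features were ECM32, its neighbours and the other deleted helicase genes, all called features, then protein-coding and noncoding features with the smallest p, up to 4 members per list and genes for the strain check. Other list members are named for their role, with values known. The members and lists were chosen with earlier results of these data known, and the contrast with 3 deletion strains after seeing the data. Replicate numbers were not used as a pairing in the main fit. The labels of the ski2Δ and dbp1Δ libraries disagree with their SKI2 and DBP1 reads and were kept as labels.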

Additional observations from a re-analysis of the deposited data

How the results depend on the processing

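Against WT, 16 features were called. There were 7 with densities as deposited, 57 with spike-in scaling, 9 with quantile normalization, 26 with a mean density above 10 times the pseudocount, 26 with voom on recovered reads and 1 when only the 4 libraries of the comparison were fitted. Leaving out 1 library gave 1 to 4. Of the 16, 7 were still called as deposited, 7 with spike-ins, 9 with quantiles and 13 with voom. Adding the replicate block gave 10 calls, 9 of them among the 16. Same-numbered WT and ecm32Δ libraries deviated with r = -0.0451, and over all pairs of strains r ran from -0.217 to 0.162. With 2 libraries per strain these values cannot show whether the numbers mark a pairing. Against the mean of the other 4 deletion strains, 1302 calls became 514 as deposited (79 higher and 435 lower, against 597 and 705), 61 with spike-ins and 251 without dhh1Δ. Leaving out 1 library gave 156 to 1357, with 156 without ecm32Δ replicate 1 and 557 without replicate 2. For the contrast with 3 strains, leaving out 1 library gave 7 to 151 calls. The ratio of the CUT share of summed density in ecm32Δ to WT, 0.835, was 0.876 by reads and 0.821 without the CUT with the most reads.

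Signs turned for 5 genes that were never called. YER175W-A was -0.060, BMH1 -0.091 and SLH1 -0.097 with spike-in scaling, and PDA1 was 0.022 and DHH1 0.028 as deposited. With 1 library left out, YER175W-A ranged from -0.42 to 0.63, PDA1 from -0.18 to 0.021 and SLH1 from -0.032 to 0.15. The cause was not tested for any of these changes. Of the other values of single features under an alternative, 575 kept direction and side of the threshold, 113 lost and 25 gained the call. Depth limits the calls on CUT571, XUT1427, NUT0032 and XUT0921, which rest on 27 or fewer reads in the 4 libraries.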
